A study of Mus musculus with 18 samples.

Results

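The 39 Hox genes of mouse embryonic fibroblasts (MEF) were followed across 6 groups of cells that differed in plasmid and in TGF-β treatment. They are the rows whose gene symbol is Hox, a letter from a to d and a number, and they make up 39 of the 55450 genes of the deposited table: 11 in the Hoxa cluster, 10 in Hoxb, 9 in Hoxc and 9 in Hoxd. Antisense and other transcripts named after the clusters were left out. The MEF were a purchased fibroblast culture, transfected with empty pcDNA3 vector, with Col1a1-miR-29b (a pcDNA3 plasmid in which a rat promoter of the collagen gene Col1a1 drives EGFP and human miR-29b-1) or with CMV-miR-29b (the same plasmid with the strong cytomegalovirus promoter in its place). Both miR-29b plasmids also carried a red fluorescent protein gene, which the empty vector control did not. From 6 h after transfection, cells of each plasmid were grown for 24 h with TGF-β or without it, which gave 6 groups of 3 libraries, named here by the letters c, d and e, or as unlettered for 1 library of each Col1a1-miR-29b group. Because transfection was transient, each library averages cells that took up plasmid and cells that did not. Poly(A) RNA was sequenced, and total counts ranged from 65898017 to 80332633 per library. The libraries of a group are described as repeated experiments, with no word on whether each began from its own culture, so p-values measure the spread between these samples.

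Hox genes encode homeodomain transcription factors that give cells their position along the body axis. In mammals they lie in 4 clusters, Hoxa to Hoxd, and genes with the same number in different clusters are paralogs that descend from a common ancestor. Genes of low number sit at the 3′ end of a cluster and are switched on early and towards the head, and genes of high number lie at the 5′ end and mark the trunk, limbs and tail. Fibroblasts grown in culture keep the Hox genes that were active where they came from, and Polycomb proteins hold the others silent. Hox proteins bind DNA together with the TALE homeodomain proteins of the Pbx, Meis and Pknox families.

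The microRNA that the plasmids add is miR-29b-3p, which binds messages through bases 2 to 8 from its 5′ end, the seed. Its sequence is shown because the plasmids express it, as RefSeq gives it for the mouse genes Mir29b-1 (chr6:31063025-31063047, minus strand) and Mir29b-2 (chr1:195037091-195037113, plus strand) on GRCm38, with the seed in capitals.
mmu-miR-29b-3p: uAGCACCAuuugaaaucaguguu
The DNA letters complementary to the seed, TGGTGCT, were searched on the sense strand of the longest annotated 3′ untranslated region (UTR) of each gene in GENCODE M21. They occurred in 13.1% of 20983 protein-coding genes and in 1 of the 39 Hox genes, Hoxc13. The median 3′ UTR of the Hox genes was 966 bases long against 962 for protein-coding genes as a whole. The stretch of the Hoxc13 3′ UTR that holds the match is given with the complement of the seed in capitals.
Hoxc13 (chr15:102928576-102928598, plus strand): cctcaaaagccaactTGGTGCTg
Hoxc13 itself was near the limit of detection. Normalized counts, which are counts scaled to the mean library size after TMM normalization, were 21.4, 31.6 and 28.6 in untreated empty vector cells and 0, 30.2 and 33.0 in untreated CMV-miR-29b cells. With TGF-β they were 31.4, 28.8 and 16.4 in empty vector cells and 36.6, 49.0 and 32.8 in CMV-miR-29b cells. The values of the CMV-miR-29b libraries spanned or exceeded those of the empty vector libraries, and neither difference passed the test, at log2 fold changes of -0.37 (SE 0.71) and 0.63 (SE 0.702). In Col1a1-miR-29b cells the counts were 27.7, 29.3 and 23.8 without and 56.5, 48.7 and 42.4 with TGF-β. Against empty vector these were log2 fold changes of -0.01 (SE 0.704) and 0.94 (SE 0.700), and neither passed. With TGF-β, Col1a1-miR-29b and CMV-miR-29b libraries lay wholly above empty vector, as did those of 14.8% and 7.86% of all genes tested.

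The MEF expressed Hoxa genes up to Hoxa10, Hoxb2 to Hoxb9, Hoxb13 and Hoxc6, while the Hoxd cluster gave almost no reads. Levels between genes were compared in FPKM (fragments scaled to transcript length and sequencing depth), which was used from 16 libraries. Mean FPKM was 1 or more for 19 of the 39 genes, between 0.1 and 1 for Hoxc4, Hoxc5, Hoxc9 and Hoxc13, and below 0.1 for the other 16. Hoxa13, Hoxd1, Hoxd8 and Hoxd9 had 0 counts in all 18 libraries. At a 95% confidence level a count of 0 allows up to 3 counts, which covers counting error only and takes counts as independent. Among counts from 1 to 40, 33.8% to 36.7% in each library were multiples of 4, where even spacing gives 25%, so an alternative fit used counts divided by 4. Of the 16 genes below 0.1, the highest count in any library was 23.

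**Figure D1:**
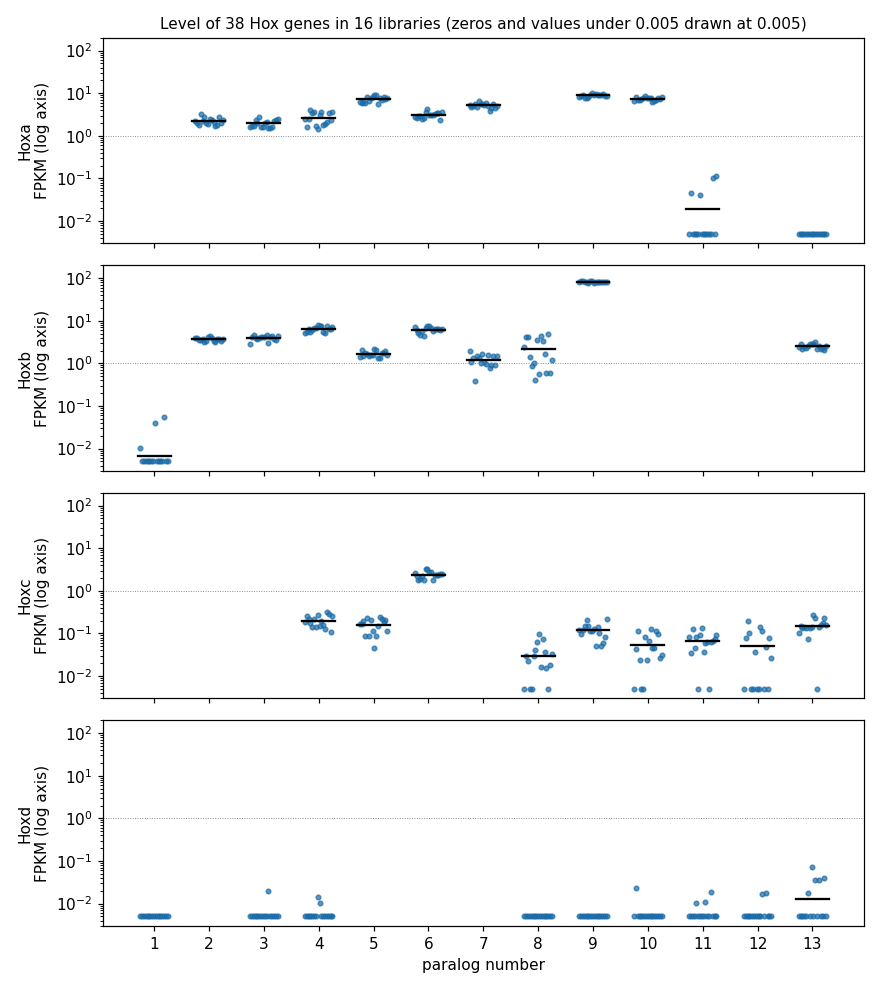
FPKM of 38 of the 39 Hox genes on a log axis against paralog number, one panel for each cluster, with a point for each of 16 libraries and a bar at the mean. Hoxb9 stands at 77.1 to 87.5 FPKM, above every other Hox gene, and Hoxd genes lie at or near 0.

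Hoxb9, a posterior gene of the trunk, was the highest Hox gene in every library. Its FPKM was 81.6 ± 2.94 (SD, n = 16), which ranked 482 of the 55450 genes and made up 48.6% to 54.8% of the summed FPKM of the Hox genes. Hoxa9 followed at 8.85 ± 0.614 FPKM (SD, n = 16), then Hoxa10 at 7.38 ± 0.659, Hoxa5 at 7.33 ± 1.15 and Hoxb4 at 6.46 ± 0.937. Hoxa9, Hoxa10 and the neighbours in this order overlapped in range between libraries, whereas no library had Hoxa9 within reach of Hoxb9, whose lowest value was 77.1 against a highest value of 9.94 for Hoxa9. By cluster, the median of the summed FPKM was 109 for Hoxb, 42.4 for Hoxa, 3.23 for Hoxc and 0.0142 for Hoxd.

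Genes at or above 1 FPKM lay in an unbroken run from Hoxb2 to Hoxb9 in the Hoxb cluster. In the Hoxa cluster (chromosome 6, GRCm38) the 9 genes at or above 1 FPKM ran from 1.95 FPKM (Hoxa3) to 8.85 FPKM (Hoxa9). Hoxa11, the next gene in the 5′ direction, was listed at 0 counts in 13 libraries and reached 22 counts at most, and Hoxa13 was at 0 throughout. In the Hoxb cluster (chromosome 11) Hoxb1, the most 3′ gene, was at 0 in 15 libraries, and Hoxb2 to Hoxb8 had mean levels of 1.22 to 6.46 FPKM. Hoxb13, which is separated from Hoxb9 by a long interval and in development is an end-of-axis gene, was expressed at 2.50 ± 0.317 FPKM (SD, n = 16). It and the genes named in this paragraph outside the 5 highest were picked out after their values were seen. In the Hoxc cluster (chromosome 15) Hoxc6 stood alone at 2.40 ± 0.465 FPKM, since the next highest gene of that cluster, Hoxc4, was at 0.200 ± 0.0633. Summed counts over the 9 Hoxd genes (chromosome 2) were 0 to 20 per library.

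The labelled cell type was checked against markers. Of 10 fibroblast markers, 6 were above 1 FPKM in all 16 libraries, among them Col1a1 and Vim at means of 135 and 109 FPKM in untreated empty vector cells. Lum, which also marks fibroblasts, had 0 counts in all 18 libraries, Thy1 had at most 8 counts, and Pdgfra and Dcn averaged 0.833 and 0.873 FPKM in untreated empty vector cells. Summed FPKM of the fibroblast list was 380 to 479 in untreated and 549 to 796 in TGF-β libraries. Among 6 epithelial, 4 endothelial, 4 blood, 4 neural and 4 myogenic markers, Krt19, Cd68, Tubb3 and Des were each the only marker of their list above 1 FPKM in all 16 libraries, and no endothelial marker was. Epcam, which defines epithelial cells, had at most 4 counts. The summed epithelial list ran from 31.4 to 39.97 FPKM without TGF-β and from 17.9 to 23.7 with it, the neural list from 14.9 to 18.5 and from 24.3 to 28.3, and the endothelial list from 0.164 to 0.312 and from 0.401 to 0.549. The blood list summed to 5.89 to 9.55 FPKM and the myogenic list to 3.49 to 5.10 FPKM over all 16 libraries. The part of these markers in the differences below was not tested.

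Hoxa3 and Hoxa4 were the only Hox genes called with TGF-β, both higher. They are neighbouring genes of the 3′ part of the Hoxa cluster that pattern the hindbrain, neck and upper spine. Hoxa3 rose in cells of each plasmid, and Hoxa4 in cells with empty vector or Col1a1-miR-29b, while its difference with CMV-miR-29b missed the threshold. The 2 groups of each plasmid were compared to find which Hox genes respond to this fibrosis-related cytokine. Of the 39 members, 28 passed the filter on low counts and were tested. The other 11 were Hoxa13, Hoxb1 and the 9 Hoxd genes. In empty vector cells 2 of 28 were called (edgeR quasi-likelihood test, adjusted p under 0.05 over 21161 genes), both higher, where 5.88% of genes as a whole were called. In Col1a1-miR-29b cells 2 were called, both higher, against 4.32% of genes, and in CMV-miR-29b cells 1, higher, against 4.95%. As shares of the 28 members these calls were 7.14%, 7.14% and 3.57%, near the shares over all genes.

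Hoxa3 was higher with TGF-β in cells of each plasmid. In empty vector cells its normalized counts were 831, 841 and 839 in untreated libraries and 1199.8, 1041 and 1435 in treated ones. In Col1a1-miR-29b cells they were 794, 774 and 802, and 1008, 1071 and 1108 with TGF-β. In CMV-miR-29b cells they were 787, 772 and 815, and 1141, 1182 and 1225 with TGF-β. All 9 untreated libraries, at 772 to 841, lay below all 9 treated libraries, at 1008 to 1435. The share of all genes split in this way over the 3 plasmids together was not counted. Within empty vector, Col1a1-miR-29b and CMV-miR-29b cells, treated libraries lay wholly above untreated ones for 11.3%, 11.8% and 11.1% of genes tested. The log2 fold change was 0.55 (SE 0.0928, edgeR adjusted p = 0.00145) in empty vector cells, 0.43 (SE 0.0929, adjusted p = 0.0127) with the Col1a1-miR-29b plasmid and 0.58 (SE 0.0929, adjusted p = 0.0011) with CMV-miR-29b, and the fold change was at most 1.49. In bulk RNA, more cells that express a gene and more RNA per cell cannot be told apart. The call in empty vector cells was lost when only these 2 groups were fitted (adjusted p = 0.0804). That in Col1a1-miR-29b cells was lost without untreated library c (adjusted p = 0.0524), untreated library d (0.0536) or the unlettered TGF-β library (0.0626), and with both limma fits on FPKM (0.284 and 0.216). In CMV-miR-29b cells it held under all 19 alternatives.

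Hoxa4 had the largest fold change among the members called. In empty vector cells its normalized counts were 334, 217 and 329 in untreated and 552, 459 and 509 in treated libraries. In Col1a1-miR-29b cells they were 222, 191 and 295 without and 416, 491 and 436 with TGF-β. In CMV-miR-29b cells they were 244, 246 and 288 without and 450.2, 323 and 477 with TGF-β. The 2 groups of each plasmid did not overlap, and library d of CMV-miR-29b cells was the lowest of the 9 treated libraries. Of all genes tested, 11.3%, 11.8% and 11.1% had treated libraries wholly above untreated ones, in the same order of plasmids. TGF-β changed Hoxa4 by 0.79 on the log2 scale (SE 0.195, edgeR adjusted p = 0.0238) in empty vector cells and 0.92 (SE 0.196, adjusted p = 0.0108) in Col1a1-miR-29b cells, that is 1.73- and 1.90-fold. In CMV-miR-29b cells it was 0.68 (SE 0.195), which missed the threshold at adjusted p = 0.0587, and the gene was called there by DESeq2 and without TGF-β library d. The call in empty vector cells was lost without untreated library d (adjusted p = 0.118), TGF-β library c (0.0951) or TGF-β library e (0.0838), and with only the groups compared (0.0947). That in Col1a1-miR-29b cells was lost without untreated library c (0.0616) or d (0.0607).

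**Figure D2:**
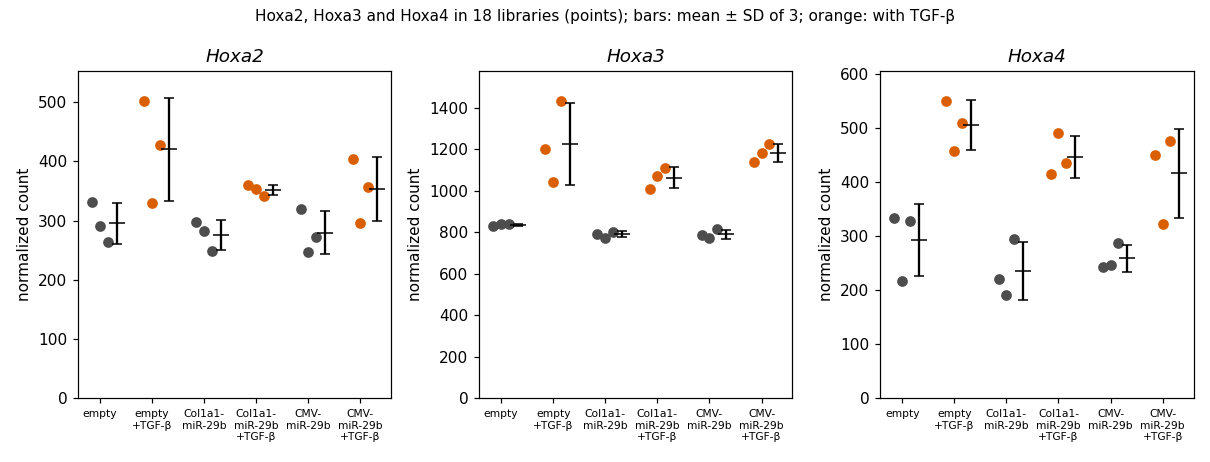
Normalized counts of Hoxa2, Hoxa3 and Hoxa4 (vertical axes from 0) in the 6 groups, with a point for each of 18 libraries, bars for mean ± SD of 3 libraries, and TGF-β groups in orange. For Hoxa3 the untreated libraries sit at 772 to 841 and the treated ones at 1008 to 1435.

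Hoxa2, the neighbour of Hoxa3 on its 3′ side and a gene of the second pharyngeal arch, was looked at after its values were seen. Its normalized counts were 332, 290.4 and 263 in untreated empty vector cells and 503, 330.0 and 428 with TGF-β, so library d with TGF-β lay inside the untreated range and the others above it. The log2 fold change was 0.51 (SE 0.162, edgeR adjusted p = 0.0861), with 0.35 (SE 0.162, adjusted p = 0.339) with the Col1a1-miR-29b plasmid and 0.34 with CMV-miR-29b (adjusted p = 0.338). Hoxa5, on the far side of Hoxa4, had log2 fold changes of 0.20, 0.24 and 0.21 in the same order of plasmids, again with no call.

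Some reads of Hoxa3 may belong to other genes inside its span, since overlap of exons was not examined. Hoxa3 had a length of 6737 bases by the deposited counts and FPKM, shorter than its span. Its span in the table (chr6:52169062-52213336, minus strand) covers Hoxa4 (chr6:52189671-52191753), Hoxa5 and Hoxa6 on the same strand, and the antisense rows Hoxaas2, 5730596B20Rik, Hoxaas3 and Gm15050 on the other, and whether counting used strand is not stated. With TGF-β, 5730596B20Rik had log2 fold changes of 0.44 (SE 0.135), 0.38 (SE 0.135) and 0.38 (SE 0.135) in empty vector, Col1a1-miR-29b and CMV-miR-29b cells, with edgeR adjusted p of 0.0726, 0.168 and 0.151. Hoxaas2 had -0.0071, 0.20 and -0.0043, Gm15050 had -0.10, -0.01 and 0.36, and Hoxaas3 had 0.04, 0.22 and 0.14, and none of these passed the test.

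The promoters of Hoxa3 and Hoxa2 are printed because Hoxa3 was called with TGF-β in cells of each plasmid and Hoxa2 is its neighbour. The 250 bases before the RefSeq start site (GRCm38.p6) are given 5′ to 3′ on the gene's strand, with CAGAC or its reverse complement GTCTG, the letters of the element that Smad proteins bind, in capitals.
Hoxa3 (chr6:52213068-52213317, minus strand): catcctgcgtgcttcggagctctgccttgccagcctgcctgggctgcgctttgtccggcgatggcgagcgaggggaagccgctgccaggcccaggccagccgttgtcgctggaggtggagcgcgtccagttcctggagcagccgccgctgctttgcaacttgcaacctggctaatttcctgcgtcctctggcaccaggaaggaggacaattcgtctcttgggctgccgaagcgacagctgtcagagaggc
Hoxa2 (chr6:52164832-52165081, minus strand): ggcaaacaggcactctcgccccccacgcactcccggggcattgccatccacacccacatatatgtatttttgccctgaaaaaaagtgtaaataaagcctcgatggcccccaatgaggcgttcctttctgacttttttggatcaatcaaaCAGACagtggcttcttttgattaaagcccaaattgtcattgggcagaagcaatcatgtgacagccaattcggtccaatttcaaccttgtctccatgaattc
Matches to CAGAC were searched on both strands of this window. The Hoxa3 window held none and the Hoxa2 window held 1, against 42.2% of 32851 promoters with a match and 7 of the 22 Hox genes that have a promoter in the table. The letters TGATTNAT, a core to which Pbx and Hox proteins bind as a pair, were found in the windows of Hoxa2 and Hoxd11, 2 of those 22 genes, and in 2.82% of promoters. A gene was counted if any of its promoters held the letters, and some Hox genes have more than 1, so shares of genes and of promoters are different measures. No promoter of Hoxa4 was matched.

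Differences of the other members with TGF-β were mostly small, with some large ones that were not called. Over the 23 members with a mean of 20 or more normalized counts, log2 fold changes with TGF-β had a median of -0.02 in empty vector cells, 0.08 with the Col1a1-miR-29b plasmid and 0.15 with CMV-miR-29b. Over all genes tested the medians were 0.0023, -0.0056 and -0.0025. Changes within 1.2-fold in either direction were found for 14, 13 and 17 of the 23. Log2 fold changes ran from -1.64 (Hoxb8) to 0.79 (Hoxa4) in empty vector cells. With Col1a1-miR-29b they ran from -1.13 (Hoxc5) to 0.92 (Hoxa4), and with CMV-miR-29b from -0.26 (Hoxc5) to 0.90 (Hoxc13). Hoxb8, Hoxc5 and Hoxc13 were not called. Hoxb9, at 17231 to 18755 normalized counts without and 16553 to 17920 with TGF-β, had log2 fold changes of -0.06, -0.08 and -0.01 (each SE 0.0316), none of which passed.

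**Figure D3:**
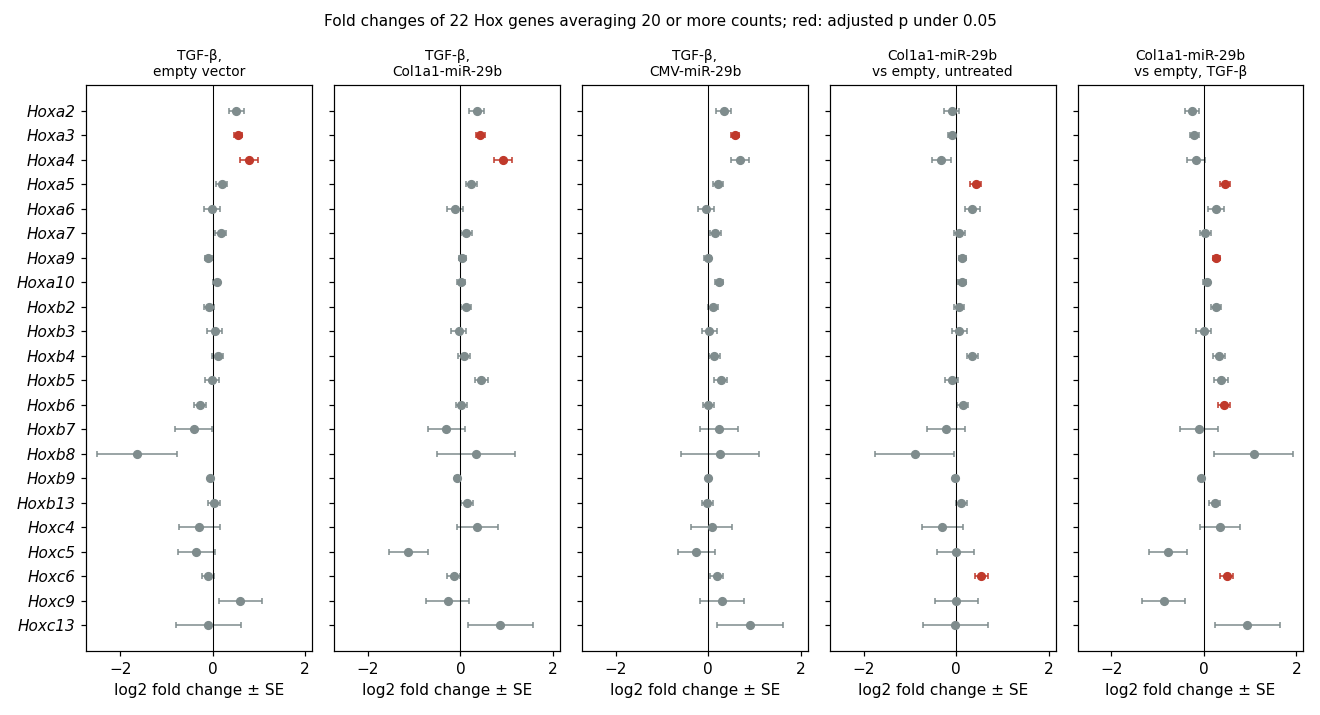
Log2 fold change ± SE of 22 of the 23 Hox genes averaging 20 or more normalized counts, in 5 comparisons, with red points at adjusted p under 0.05. Red points are Hoxa3 and Hoxa4 for TGF-β in empty vector and Col1a1-miR-29b cells, Hoxa3 in CMV-miR-29b cells, and Hoxa5, Hoxc6, Hoxa9 and Hoxb6 for Col1a1-miR-29b against empty vector.

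The response of Hox genes to TGF-β was not shown to depend on the plasmid. The difference in response was tested in the same model, and 0 of 28 members were called for Col1a1-miR-29b against empty vector, where 0% of genes were called, and 0 of 28 for CMV-miR-29b against empty vector, where again 0% were. At an unadjusted p under 0.05 there was 1 member in each, where 4.54% and 5.34% of all genes were, and DESeq2 called 0 members in both. For Hoxa3 the difference was -0.12 (SE 0.131) on the log2 scale with Col1a1-miR-29b and 0.03 (SE 0.131) with CMV-miR-29b. For Hoxa4 it was 0.14 (SE 0.275) and -0.10 (SE 0.275).

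The Col1a1-miR-29b plasmid was compared with empty vector to see which Hox genes differ when the collagen promoter drives miR-29b. According to the paper, untreated cells held far less miR-29b with this plasmid than with CMV-miR-29b, and TGF-β raised it. More DNA by mass was used for Col1a1-miR-29b than for CMV-miR-29b. The part of miR-29b or of the DNA amount in the differences was not tested. Without TGF-β, Hoxa5 and Hoxc6 were higher in Col1a1-miR-29b cells, 2 of 28 members where 6.27% of genes were called. With TGF-β, Hoxa5, Hoxa9, Hoxb6 and Hoxc6 were higher, 4 of 28 where 12.9% of genes were called. No member was lower by the test. The fold changes were 1.21 to 1.46, and each call was lost when 1 of several libraries was left out. With limma on FPKM, from 2 Col1a1-miR-29b libraries a group, 0 members were called in either comparison. None of the calls named here held in the lettered libraries alone, with or without the replicate letter as a block. The empty vector libraries are shared with the TGF-β comparison above and with the CMV-miR-29b comparison below. Over the 23 more abundant members the median log2 fold change was 0.06 without and 0.23 with TGF-β, against 0.018 and 0.019 over all genes tested. The summed fibroblast markers were also lower in Col1a1-miR-29b cells, at 380 to 381 FPKM against 432 to 479 in the untreated state and 549 to 559 against 698 to 796 in the treated one. They were lower in CMV-miR-29b cells as well, at 386 to 430 FPKM untreated and 599 to 654 treated. The list holds Col1a1, Col1a2, Col3a1 and Fn1, each called lower in Col1a1-miR-29b cells with TGF-β, so its sum is not a measure of fibroblast content alone. The part of these markers in the Hox differences was not tested.

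Hoxa5 (chr6:52201754-52204587, minus strand), which patterns the neck and the respiratory tract, had normalized counts of 979, 934 and 961 in untreated empty vector cells and of 1212, 1278 and 1362 in untreated Col1a1-miR-29b cells. With TGF-β they were 975, 1254 and 1061, and 1419.8, 1455 and 1663. The groups did not overlap in either case. Of all genes tested, 14.9% lay wholly above empty vector in this way without TGF-β and 14.8% with it. The log2 fold change of Hoxa5 was 0.42 (SE 0.113, edgeR adjusted p = 0.0384) without TGF-β and 0.46 (SE 0.113, adjusted p = 0.014) with it. Leaving out any of the 6 untreated libraries ended the first call (adjusted p = 0.0611 to 0.129). The second was lost without the TGF-β libraries empty vector c (0.0755), empty vector e (0.0609) or the unlettered Col1a1-miR-29b library (0.071). In CMV-miR-29b cells normalized counts of Hoxa5 were 884, 1209 and 1076 without and 1301, 1175 and 1199 with TGF-β, between those of the other plasmids on average.

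Hoxc6, the sole expressed gene of the Hoxc cluster at above 1 FPKM and a gene of the thoracic region, had normalized counts of 518, 440.2 and 355 in untreated empty vector cells and of 635, 641 and 643 in Col1a1-miR-29b cells. With TGF-β the values were 388, 464 and 373 against 560.0, 559 and 612. The 6 Col1a1-miR-29b libraries, at 559 to 643, lay above the 12 others, at 355 to 518. The share of all genes split in this way was not counted. Against empty vector alone, 14.9% of all genes tested lay wholly above without TGF-β and 14.8% with it. The log2 fold change was 0.55 (SE 0.137, edgeR adjusted p = 0.0296) without TGF-β and 0.50 (SE 0.138, adjusted p = 0.0264) with it. Left-out libraries gave adjusted p of 0.0294 to 0.107 for the first, with the call kept only without untreated empty vector c, and of 0.0152 to 0.118 for the second, kept only without TGF-β empty vector d. The span of Hoxc6 (chr15:102998257-103010768, plus strand) overlaps that of Hoxc5, so reads shared by both are uncertain. CMV-miR-29b cells had 362, 478 and 467 without and 472, 497 and 514 with TGF-β. Against Col1a1-miR-29b cells this was -0.56 (SE 0.137) on the log2 scale without TGF-β, with an edgeR adjusted p of 0.0523 and a call by DESeq2.

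Hoxa9 and Hoxb6 passed the test with TGF-β. Hoxa9 (chr6:52223100-52231089, minus strand), the paralog of Hoxb9 and a regulator of blood stem cells, had normalized counts of 3789.9, 3723 and 3846 in empty vector cells with TGF-β and of 4162, 4421 and 5108 in Col1a1-miR-29b cells, without overlap. Of all genes tested, 14.8% lay wholly above empty vector in this comparison. The log2 fold change of Hoxa9 was 0.27 (SE 0.0724, edgeR adjusted p = 0.0232). It was lost without the unlettered Col1a1-miR-29b library, the highest of them (0.17, adjusted p = 0.13), or without empty vector c, d or e (0.0738, 0.0561 and 0.0607). Without TGF-β the counts were 3904, 4069 and 4134 against 4117, 4521 and 4662, which overlapped. CMV-miR-29b cells had 4296, 4139 and 4243 without and 4554, 4096 and 3950.4 with TGF-β.

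Hoxb6 (chr11:96292476-96301569, plus strand), a trunk gene between Hoxb5 and Hoxb7, had normalized counts of 782, 974 and 736 in empty vector cells with TGF-β and 1228, 1094 and 1039 in Col1a1-miR-29b cells, without overlap, where 14.8% of all genes tested lay wholly above. The difference was 0.43 on the log2 scale (SE 0.127, edgeR adjusted p = 0.0352), and of the 6 fits that left out a library the call held only in the fit without empty vector d (adjusted p up to 0.155 in the others). It was also lost with a filter of at least 1 count in any library (0.0606) and with offsets for GC content and length (0.0553). Untreated values of 1188, 985 and 829.9 against 1076, 1195 and 1042 overlapped, and CMV-miR-29b cells had 972, 1044 and 1060.5 without and 1062, 974 and 1049.9 with TGF-β. Hoxb6 overlaps the antisense row Hoxb5os.

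**Figure D4:**
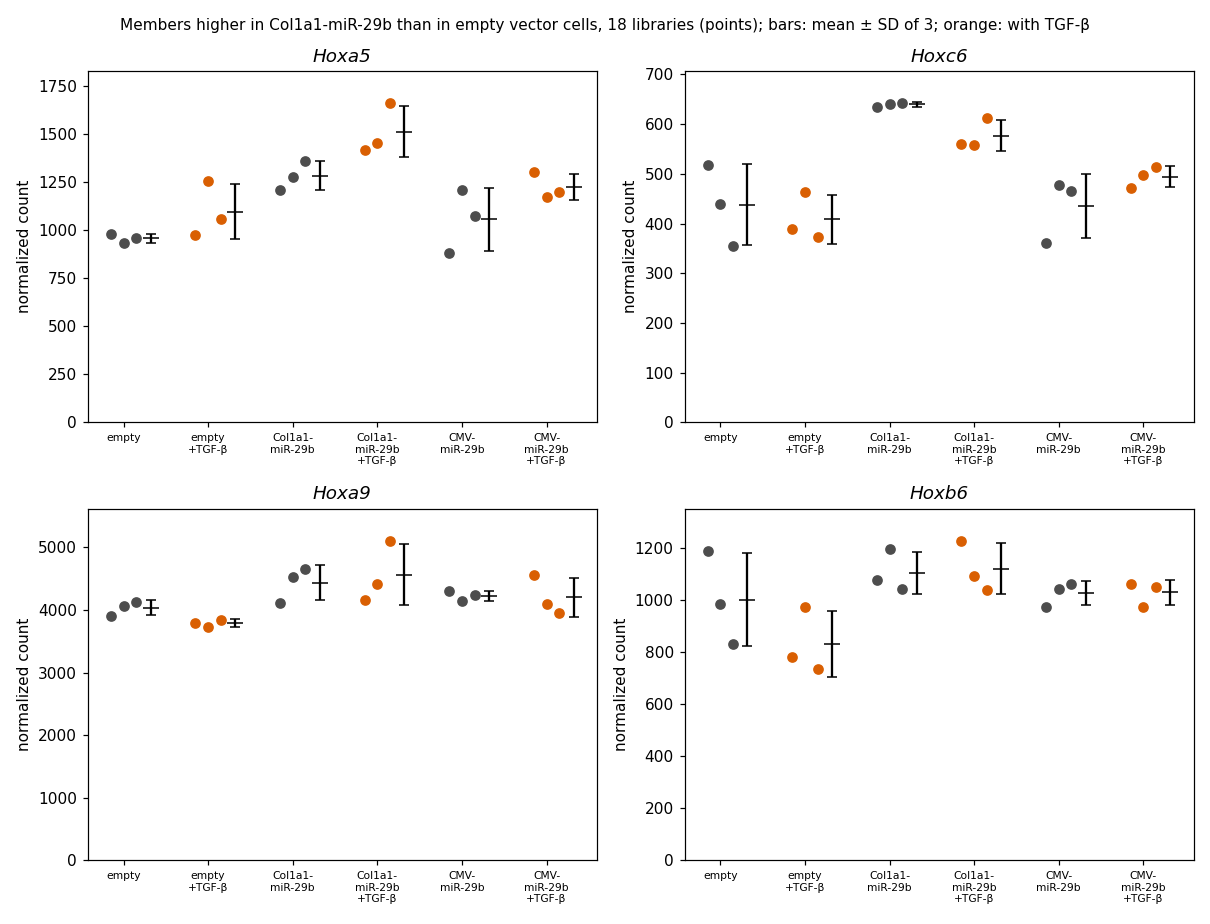
Normalized counts of Hoxa5, Hoxc6, Hoxa9 and Hoxb6 (vertical axes from 0) in the 6 groups, with a point for each of 18 libraries, bars for mean ± SD of 3, and TGF-β groups in orange. The Hoxc6 points of Col1a1-miR-29b cells sit at 559 to 643 and those of the 12 other libraries at 355 to 518. The share of all genes split in this way was not counted.

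Of the 5 highest Hox genes, Hoxb9, Hoxa10 and Hoxb4 were called in no comparison. Hoxa10, which is known for its part in the uterus and in blood, had normalized counts of 1777, 2181 and 1863 in empty vector, 2306, 2016 and 2059 in Col1a1-miR-29b and 1741, 1748 and 1922 in CMV-miR-29b cells without TGF-β. With TGF-β they were 1978, 2059 and 2129.9, then 2131, 2079.7 and 2222, and then 2148, 1958 and 2237. The ranges overlapped between most groups, and the log2 fold change with TGF-β was 0.08, 0.01 and 0.23 in the same order of plasmids (edgeR adjusted p = 0.151 for the last).
Hoxb4, which supports blood stem cells, had normalized counts of 1125, 1163 and 1351 in empty vector, 1439, 1619 and 1599 in Col1a1-miR-29b and 1179.5, 1119.5 and 1621 in CMV-miR-29b cells without TGF-β. With TGF-β the values were 1182, 1277 and 1467, then 1639, 1641 and 1646, and then 1385, 1369.8 and 1550.2. Col1a1-miR-29b libraries lay above those of empty vector in both states, as did those of 14.9% and 14.8% of all genes tested. The log2 fold changes of Hoxb4 were 0.36 (SE 0.124, edgeR adjusted p = 0.103) and 0.33 (SE 0.124, adjusted p = 0.102), and both missed the threshold. With the replicate letter as a block, Hoxb4 was called in the comparison with TGF-β.

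No Hox gene passed the test between CMV-miR-29b and empty vector cells. Without TGF-β, 0 of 28 members were called by edgeR, where 0.00473% of genes were called, and 0 had an unadjusted p under 0.05, where 5.46% of genes did. With TGF-β, 0 members were called, where 0.00945% of genes were called, and 2 had an unadjusted p under 0.05, where 12% of genes did. DESeq2 called 0 members in both. The median standard error of the 23 more abundant members was 0.137 and 0.138 on the log2 scale, and log2 fold changes of these 23 ran from -0.92 (Hoxb8) to 0.25 (Hoxa6) without TGF-β and from -0.48 (Hoxc9) to 0.98 (Hoxb8) with it. Between CMV-miR-29b and Col1a1-miR-29b cells edgeR called 0 of 28 members without TGF-β, where 1.81% of genes were called, and 0 with it, where 1.93% were. At an unadjusted p under 0.05 there were 3 members in each, where 16.4% and 15.6% of all genes were. DESeq2 called 1, Hoxc6, without TGF-β and 0 with it.

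Hoxb8 and Hoxb9, next to each other on chromosome 11, were at opposite ends of the spread between replicates, a contrast noticed after the values were seen. Hoxb8, a gene of the thoracic and spinal region, had normalized counts of 526, 920.5 and 904 in untreated empty vector cells and of 324, 197 and 233 in the treated ones. In Col1a1-miR-29b cells the values were 89.3, 754 and 419 without and 126, 992 and 470.4 with TGF-β. In CMV-miR-29b cells they were 754, 357 and 130.3 without and 1088, 133 and 265 with TGF-β. Replicates of a group lay far apart in both miR-29b plasmids, and the highest of the 18 libraries was 12.2-fold above the lowest. The SD of Hoxb8 within groups was 1.09 on the log2 scale, larger than that of 97.7% of genes at a like level. That of Hoxb9 (chr11:96271457-96276595, plus strand) was 0.0284, larger than that of 0.673% of genes at a like level, and its 18 libraries lay within 1.13-fold. Hoxb7, on the other side of Hoxb8 from Hoxb9, had an SD of 0.43 and ranged 4.81-fold.
In empty vector cells the 3 TGF-β libraries of Hoxb8 lay below the 3 untreated ones, as did those of 9.69% of all genes tested. The log2 fold change was -1.64 with an SE of 0.866 (edgeR adjusted p = 0.366), and it passed when only these 2 groups were fitted. In the other plasmids it was 0.33 (SE 0.844) and 0.26 (SE 0.844).

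**Figure D5:**
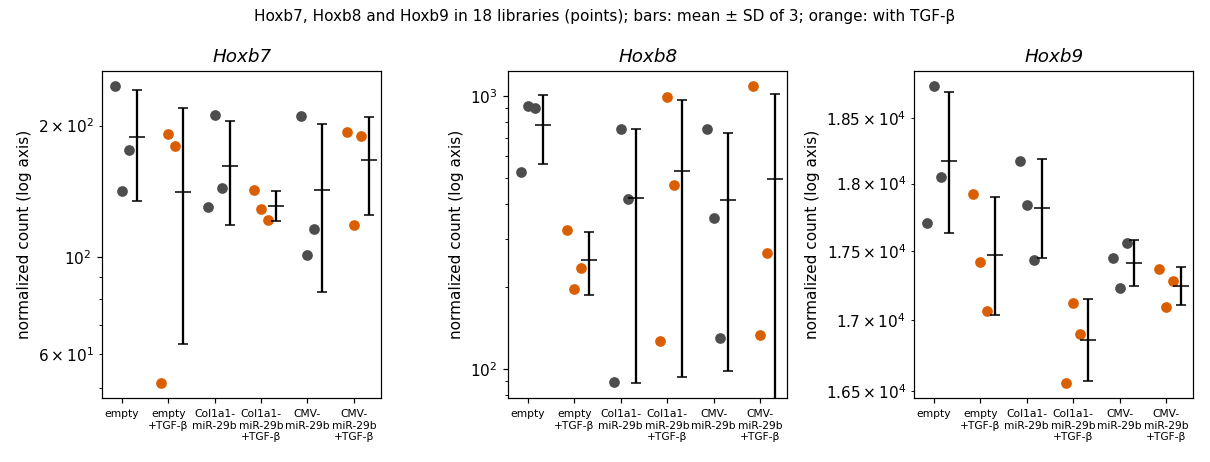
Normalized counts of Hoxb7, Hoxb8 and Hoxb9 on log axes in the 6 groups, with a point for each of 18 libraries, bars for mean ± SD of 3, and TGF-β groups in orange. Hoxb9 lies between 16553 and 18755 in every library, while Hoxb8 runs from 89.3 to 1088 and spreads widely inside its groups.

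Genes that act with or on the Hox clusters were read from lists chosen by their known roles. Their counts stand beside the shares of all genes called, which were 5.88%, 4.32% and 4.95% for TGF-β in empty vector, Col1a1-miR-29b and CMV-miR-29b cells and 6.27% and 12.9% for Col1a1-miR-29b against empty vector without and with TGF-β. Of 9 TALE cofactors, 0 were called by edgeR in each of the 3 TGF-β comparisons. For Col1a1-miR-29b against empty vector with TGF-β, 4 were called, 1 higher and 3 lower. Among them Pknox2 had a log2 fold change of -0.42 (SE 0.0941, edgeR adjusted p = 0.00882), Meis2 -0.36 (SE 0.113) and Meis3 0.22 (SE 0.0629). Without TGF-β, 0 of the 9 passed. The median over the list for Col1a1-miR-29b against empty vector was -0.19 without and -0.30 with TGF-β, against 0.018 and 0.019 over all genes.

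Of 22 Polycomb genes, 3 were called with TGF-β in empty vector cells, 2 higher and 1 lower, and 1, lower, in each of the other plasmids. Phf19, an accessory subunit that brings the repressive complex PRC2 to chromatin, fell in cells of each plasmid, with log2 fold changes of -0.41 (SE 0.0961), -0.42 (SE 0.0961) and -0.58 (SE 0.0963). Ezh2, the enzyme of PRC2, and Cbx2, a reader of its mark, rose in empty vector cells by 0.15 (SE 0.0418) and 0.25 (SE 0.0638). For Col1a1-miR-29b against empty vector, 1 of the 22 was called without TGF-β, higher, and 2 with it, 1 higher and 1 lower. The lower one was Jarid2, an accessory subunit of PRC2, at a log2 fold change of -0.60 (SE 0.184).
Of 12 genes of the Trithorax group and related enzymes that keep genes active, Kdm6b, which removes the Polycomb mark, was the single member called with TGF-β, at 0.24 (SE 0.0454), 0.28 (SE 0.0455) and 0.25 (SE 0.0455). Kmt2c was lower in Col1a1-miR-29b than in empty vector cells, with log2 fold changes of -0.32 (SE 0.086) without and -0.42 (SE 0.0861) with TGF-β, and Ash1l with TGF-β by -0.28 (SE 0.0582).

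Retinoic acid is the classic inducer of the 3′ Hox genes. Of 20 genes of its pathway and related axial signals 14 were tested. Rara, a retinoic acid receptor, was higher with TGF-β in cells of each plasmid, at 0.34 (SE 0.0587), 0.46 (SE 0.0588) and 0.39 (SE 0.0588) on the log2 scale. Cyp26b1, which degrades retinoic acid, was higher in empty vector cells by 0.83 (SE 0.224) and in Col1a1-miR-29b cells by 1.12 (SE 0.223). Gdf11, a TGF-β family ligand that sets trunk and tail Hox expression, was higher in Col1a1-miR-29b than in empty vector cells by 0.21 (SE 0.0537) without and 0.18 (SE 0.0537) with TGF-β. No other gene of the list was called in these 5 comparisons.
Of 38 other transcription factors of position, 18 were tested. Tbx15 rose with TGF-β in empty vector cells (0.20 on the log2 scale, SE 0.0569). In Col1a1-miR-29b cells with TGF-β, Tbx15 was lower than in empty vector cells (-0.22, SE 0.057). Of 17 noncoding and other transcripts named after the clusters 7 were tested and 1 was called, Hoxaas3, at 0.86 (SE 0.224, edgeR adjusted p = 0.0203) for Col1a1-miR-29b against empty vector with TGF-β. It lies on the strand opposite Hoxa3, within the span of that gene. For CMV-miR-29b against empty vector and against Col1a1-miR-29b, 0 genes of these 6 lists were called by edgeR.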

How the data were processed

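Poly(A) RNA of 18 libraries (6 groups of 3) was sequenced in paired ends from a stranded kit. According to the methods and processing notes, the authors trimmed reads with cutadapt, checked them with FastQC, aligned them with HISAT2, assembled transcripts with StringTie and tested with DESeq2. The deposited counts per gene are whole numbers that were not normalized, and the deposited FPKM values are normalized by the authors for length and depth, with 0 written as a small constant, which was set back to 0. The counting tool and its use of strand are not given in the sources used here. The notes list mm9, but 94.7% of rows share start and end with GRCm38 genes (GENCODE M21), so coordinates are those of GRCm38. The last column of each Col1a1-miR-29b group carries a letter that no title has: its counts entered as an unlettered library of its group, and 2 FPKM columns were not used.

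Counts of 55450 genes were filtered (filterByExpr, 21161 left), scaled by TMM and fitted with 1 mean per group over all 18 libraries in edgeR 4.0.16 (R 4.3.3, quasi-likelihood test, 2-sided). P-values were adjusted by Benjamini-Hochberg over all genes tested, with calls at 0.05, in 11 comparisons. Alternatives were DESeq2 1.42.0, limma 3.58.1 on log2(FPKM + 1) and log2(FPKM + 0.1), other filters, only the groups compared, counts divided by 4, a replicate block and each library left out. Offsets for GC content and length and a fit to the lettered libraries were added after the data were seen. Totals of 65898017 to 80332633 counts per library set the depth, and counts cover counting error only. Values in every library are printed for members called between any 2 groups and for the 5 of highest mean FPKM, and genes of other lists only where called. The members and lists were chosen with earlier results of these data known. Some genes are not reported here.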

Additional observations from a re-analysis of the deposited data

How the results depend on the processing

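None of the 11 fold changes called for Hox genes changed direction under the alternatives run, and the direction of members that were not called was not followed across them. For TGF-β in empty vector cells, 2 members were called, and 1 (Hoxb8) with only the groups compared, with 1 to 3 when a library was left out. For TGF-β in Col1a1-miR-29b cells, 2 were called, and 1 (Hoxa4) with the replicate block, with limma at either pseudocount, with the lettered libraries only and with GC and length offsets plus the block, with 0 to 2 when a library was left out. For TGF-β in CMV-miR-29b cells, 1 was called, and 2 (Hoxa3 and Hoxa4) with DESeq2, with at least 10 counts in every library, with the replicate block, with counts divided by 4, and with GC and length offsets with or without the block, with 1 to 2 when a library was left out. For Col1a1-miR-29b against empty vector without TGF-β, 2 were called, 1 with at least 1 count in any library, with only the groups compared or with GC and length offsets, and 0 with the replicate block, either limma fit, the lettered libraries only or the offsets plus the block, with 0 to 1 when a library was left out. With TGF-β, 4 were called, 1 (Hoxb4) with the replicate block, and 0 with only the groups compared, either limma fit, the lettered libraries only or the offsets plus the block, with 0 to 4 when a library was left out. For CMV-miR-29b against Col1a1-miR-29b without TGF-β, 0 were called, and 1 (Hoxc6) with DESeq2, at least 10 counts in every library or counts divided by 4. The other comparisons had 0 members called under every alternative. The cause of these changes was not tested, except that the block, limma and lettered fits hold 16 libraries, with 2 in each Col1a1-miR-29b group.

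The values did not decide whether the replicate letters pair the libraries. Deviations from group means correlated at 0.011 on average over 36 pairs with the same letter (-0.128 to 0.131) and at -0.00573 over 70 pairs with different letters, and 9 of 16 libraries correlated best with their own letter. Over all genes, the replicate block gave 932 calls against 1245 for TGF-β in empty vector cells, 394 against 914 in Col1a1-miR-29b cells, 161 against 1327 for Col1a1-miR-29b against empty vector without TGF-β and 1152 against 2738 with it. The same lettered libraries without the block gave 1076, 453, 397 and 1659. DESeq2 gave 1753, 1317, 2398 and 3537. Scaling by total counts moved the median of all genes by at most 0.0369 on the log2 scale. Low counts limit Hoxa11, Hoxb1, the Hoxd genes and most Hoxc genes.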
